A study of Mus musculus with 32 samples.

Results

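Peroxiredoxins are the thiol enzymes that remove much of the hydrogen peroxide made inside a cell, and the genes described here are that family together with the enzymes that keep it working. The set held 10 mouse genes: Srxn1, the sulfiredoxin gene; the 6 peroxiredoxin genes Prdx1 to Prdx6; Txnrd2 and Txnrd3, for thioredoxin reductases; and Glrx, for glutaredoxin. They were chosen by symbol, with earlier results of these data known, and were 10 of the 34453 rows of the count table. Each symbol matched 1 row.

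A peroxiredoxin reduces peroxide with a cysteine, which is oxidized in the process and is then usually returned to its reduced form by thioredoxin. Thioredoxin is in turn recharged by thioredoxin reductase at the cost of NADPH. When peroxide is abundant the cysteine can be oxidized further, to a sulfinic acid that thioredoxin cannot reduce, and sulfiredoxin is the enzyme that repairs it. Nrf2 is a transcription factor that binds the antioxidant response element in DNA and is known for inducing several genes of this kind, and the retinal pigment epithelium (RPE), the pigmented sheet that supports the photoreceptors, is known for a high oxidative load.

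The study asked what Nrf2 does to the RPE of a mouse whose rods degenerate. By the labels the mice carried the rd1 allele of Pde6b, which kills the rods early in life. In each mouse the Nrf2 eye had been injected with AAV-Best1-Nrf2 plus AAV-Best1-GFP, and the control eye of the same mouse with AAV-Best1-GFP alone. The eyes were collected at postnatal day 20 (P20, 7 mice) or postnatal day 40 (P40, 9 mice), which gave 4 groups and 32 libraries of amplified polyA RNA from RPE. All eyes therefore shared the GFP vector and, by the labels, the rd1 background. The vector encoded human NRF2, and the Best1 promoter limited its expression to RPE within the eye. The labels call all 9 P40 mice rd1, whereas the methods of the study name both rd1 and wild-type CD1 pairs at P40. At both ages the methods name fewer rd1 pairs than the labels do. The strain was taken from the labels. Any difference between the ages therefore cannot be told apart from a difference in strain, should some P40 pairs be CD1. The labels mention more than 1 sequencing run without assigning libraries to runs.

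Libraries held 16548332 to 50542797 counts. The human transgene (NFE2L2) was at 1082 to 9506 CPM, the count scaled by library size, in the P20 Nrf2 eyes and at 3205 to 10438 CPM in the P40 Nrf2 eyes, against 0 to 99.2 CPM in the P40 control eyes. At P20 the control eyes ranged from 0.924 to 1098 CPM. The top of that range was the library labelled control of mouse 3, and the lowest Nrf2 value at P20, 1082 CPM, was the library labelled Nrf2 of mouse 4. These 2 libraries were also the most alike of all 32, with squared differences 8.70 times sampling noise, against 53.7 times for the next closest pair, so they were not counted as 1 sample. Whether these 2 libraries hold the eyes that their labels name was not tested, and the P20 levels and spreads given for all 7 mice include them. The P20 tests of the 10 genes, their levels per length and the related gene lists are also given without these mice. RPE markers (Rpe65, Best1, Rlbp1, Lrat, Ttr and Rgr) were read in every group, with a median summed level of 14362 CPM in P20 Nrf2 eyes, 11714 in P20 control, 16556 in P40 Nrf2 and 30020 in P40 control eyes. With Nrf2, 1 of the 6 was called lower at P20 and 4 at P40. Cone markers had higher sums in control eyes: their median was 269 CPM in control and 19.8 CPM in Nrf2 eyes at P20, and 686 against 32.2 CPM at P40, with 2 of 5 and 5 of 5 markers called lower with Nrf2. Rod markers had median sums of 82.0 and 104 CPM in control eyes and 8.92 and 10.9 CPM in Nrf2 eyes at P20 and P40, with 0 of 7 and 2 of 6 tested called lower. Of the macrophage markers 2 of 6 were called higher with Nrf2 at P40, and none of the red blood cell, endothelial, fibroblast, Muller glia or muscle markers was called with Nrf2 at either age. The part of these other cells in the results below was not tested. In bulk RNA, fewer cells of a type and less RNA per cell cannot be told apart.

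The promoters of Srxn1 and Prdx1 are shown because these genes were among those that rose with Nrf2, and because both contain the core of the antioxidant response element, the DNA element that Nrf2 is known to bind. The windows and the transcript starts come from RefSeq (GRCm38.p6). The gene positions given below begin earlier, at 152105516 for Srxn1 and 116685544 for Prdx1. The last bases of both upstream stretches therefore lie inside those positions. Capitals mark each match to TGACNNNGC, TGAGNNNGC or the AP-1 site TGAGTCA on either strand. The 250 bases before the start of Srxn1 (chr2:152105274-152105523, plus strand), the 30 bases around its match after the start (chr2:152105541-152105570, plus strand) and the 250 bases before the start of Prdx1 (chr4:116685349-116685598, plus strand) read as follows.
Srxn1 upstream: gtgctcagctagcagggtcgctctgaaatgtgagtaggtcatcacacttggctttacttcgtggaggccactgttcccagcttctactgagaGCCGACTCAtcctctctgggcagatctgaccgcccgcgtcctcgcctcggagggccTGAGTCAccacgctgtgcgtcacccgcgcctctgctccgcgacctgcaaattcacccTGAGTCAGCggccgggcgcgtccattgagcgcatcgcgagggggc
Srxn1 after the start: ggcagtgggcaGCTAGGTCAgagtgagaca
Prdx1 upstream: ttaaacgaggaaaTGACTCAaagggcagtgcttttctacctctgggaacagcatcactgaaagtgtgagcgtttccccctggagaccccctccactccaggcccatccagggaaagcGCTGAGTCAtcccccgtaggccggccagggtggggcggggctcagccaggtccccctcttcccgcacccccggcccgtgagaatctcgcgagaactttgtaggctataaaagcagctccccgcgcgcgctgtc

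Counting from the transcript start, Srxn1 had GCCGACTCA at -158 and TGAGTCAGC at -45, which also holds the AP-1 site TGAGTCA, and GCTAGGTCA at 29. A separate AP-1 site stood at -102. Prdx1 had GCTGAGTCA at -133, which overlaps the AP-1 site TGAGTCA at -131, a separate TGACTCA at -237, and GCGTTCTCA at 16 after the start. RefSeq windows of 300 bases were matched for 9 of the 10 genes, all but Prdx6. Of these, 3 held a core match in either form, namely Srxn1, Prdx1 and Txnrd3, against 27.8% of 32851 windows of all genes. The C form alone was in 12.4%, the G form in 17.6% and the AP-1 site in 5.20% of windows. Glrx had an AP-1 site, and the windows of Prdx2, Prdx3, Prdx4, Prdx5 and Txnrd2 held none of the searched letters. The Prdx4 window (chrX:155338411-155338710, minus strand) lay inside the gene position given below, which begins at 155340754 on that strand. The motifs were chosen after these sequences had been read. A match describes the letters in the window and is not a measure of binding.

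The comparison of Nrf2 with control eyes asked which of these enzymes differed between the eyes of a mouse. Nrf2 eyes received the Nrf2 vector on top of the GFP vector, and so a higher total dose of virus. The part of that dose in the differences was not tested. Srxn1, Prdx1 and Prdx6 rose at both ages, and none of the other 7 genes passed the threshold in edgeR. At P20, 3 of the 10 genes were called, all higher, beside 3.41% of 16303 genes tested called in either direction and 2.93% called higher. At P40 again 3 were called, all higher, beside 4.57% of 16686 genes in either direction and 3.33% higher. All 10 genes passed the filter on low counts in every comparison. The median log2 fold change of the 10 genes was 0.22 at P20 and 0.31 at P40, beside -0.04 and -0.03 for all genes tested. These tests used edgeR's quasi-likelihood F test with the mouse as a block, and P values were adjusted over all genes by Benjamini-Hochberg, with a threshold of 0.05.

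**Figure D1:**
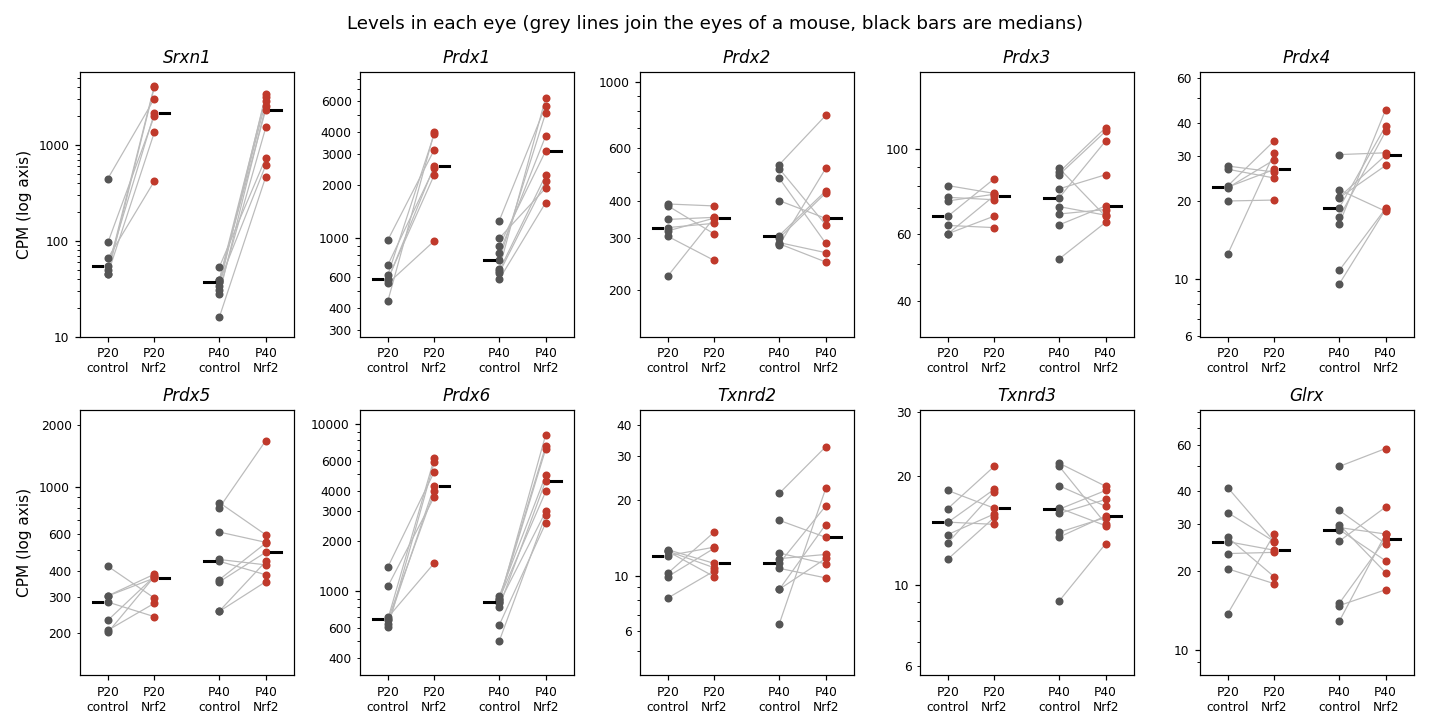
Level of each of the 10 genes in every eye, in CPM on a log axis, with grey lines joining the eyes of a mouse and black bars at the group medians. Srxn1, Prdx1 and Prdx6 are higher in the Nrf2 eye of all 7 mice at P20 and all 9 at P40, and for each of the other genes the lines run both ways.

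Srxn1 (ENSMUSG00000032802, chr2:152105516-152111376, plus strand, GRCm38), for the enzyme that repairs overoxidized peroxiredoxins, had the largest change of the 10. In P20 control eyes its level ran from 45.3 CPM through a median of 54.5 to 444 CPM, and in P20 Nrf2 eyes from 417 through 2128 to 4095 CPM. The groups overlapped only because the library labelled control of mouse 3 (444 CPM) stood above the library labelled Nrf2 of mouse 4 (417 CPM). The other 6 control eyes lay between 45.3 and 95.8 CPM. The mean was 114 ± 147 CPM in control and 2424 ± 1355 CPM in Nrf2 eyes (SD, n = 7 each). The Nrf2 eye was higher in 7 of 7 mice, by 2.67 (mouse 4) to 6.45 (mouse 7) on the log2 CPM scale. The log2 fold change was 4.68 (SE 0.58, 25.6-fold, edgeR adjusted P = 0.00921), and 5.42 (SE 0.43, edgeR adjusted P = 0.00297) without mice 3 and 4.

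At P40 Srxn1 ranged from 16 through a median of 36.9 to 53.2 CPM in control eyes and from 464 through 2323 to 3333 CPM in Nrf2 eyes. The groups did not overlap, which held for 1.30% of all genes tested at this age. The means were 34.8 ± 10.04 and 1942 ± 1135 CPM (SD, n = 9 each), and the spread among Nrf2 eyes was wide, with mice 3, 6 and 8 at 464, 613 and 726 CPM and the other 6 at 1513 CPM or more. The log2 fold change was 5.53 (SE 0.39, 46.4-fold, edgeR adjusted P = 1.09e-05), higher in 9 of 9 mice by 3.77 to 6.63. By P value Srxn1 ranked 46 of 16303 genes at P20 and 14 of 16686 at P40.

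Prdx1 (ENSMUSG00000028691, chr4:116685544-116700822, plus strand), a cytosolic and nuclear peroxiredoxin with a pair of active cysteines and a known substrate of sulfiredoxin, rose about 4-fold. At P20 it went from 437 through a median of 583 to 972 CPM in control eyes and from 960 through 2561 to 3985 CPM in Nrf2 eyes. The overlap again came from the control library of mouse 3 (972 CPM) and the Nrf2 library of mouse 4 (960 CPM). At P40 the control eyes ran from 581 through 747 to 1253 CPM and the Nrf2 eyes from 1587 through 3125 to 6276 CPM, without overlap. Its log2 fold change was 2.01 at P20 (SE 0.27, 4.04-fold, edgeR adjusted P = 0.0105) and 1.97 at P40 (SE 0.25, 3.93-fold, edgeR adjusted P = 0.000696). The Nrf2 eye was higher in 7 of 7 and 9 of 9 mice, by 0.80 to 3.19 and by 0.95 to 3.23 on the log2 CPM scale. Without mice 3 and 4 the P20 value was 2.30 (SE 0.27, edgeR adjusted P = 0.00783).

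Transcripts of 3 other annotated genes (Gm15974, Gm21399 and Gm7204) share at least 200 bases with Prdx1 at 90% identity or more, and Gm21399 matched at 98.3% over 597 bases. Together they held 0.122% as many counts as Prdx1, so few reads were assigned to them. Reads split between such copies would be uncertain.

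Prdx6 (ENSMUSG00000026701, chr1:161240112-161251219, minus strand), the peroxiredoxin with 1 active cysteine, is recharged mainly by glutathione rather than thioredoxin, can reduce oxidized phospholipids and also has a phospholipase activity. It is not a substrate of the repair by Srxn1 in the way that Prdx1 is. In P20 control eyes it ran from 607 through a median of 681 to 1396 CPM, and in P20 Nrf2 eyes from 1474 through 4250 to 6242 CPM. Prdx6 was the only one of the 10 genes whose P20 groups did not overlap, which held for 1.50% of all genes tested. The 2 libraries nearest the gap were the same as for Srxn1 and Prdx1, the control library of mouse 3 (1396 CPM) and the Nrf2 library of mouse 4 (1474 CPM). At P40 it ran from 504 through 866 to 935 CPM in control eyes and from 2560 through 4582 to 8655 CPM in Nrf2 eyes, again without overlap.

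The log2 fold change of Prdx6 was 2.33 at P20 (SE 0.30, 5.04-fold, edgeR adjusted P = 0.0101), 2.66 without mice 3 and 4 (SE 0.30, edgeR adjusted P = 0.00725) and 2.49 at P40 (SE 0.22, 5.61-fold, edgeR adjusted P = 5.77e-05). The Nrf2 eye was higher in all 7 and all 9 mice, by 1.08 to 3.29 and by 1.82 to 3.32 on the log2 CPM scale. The near-identical genes Prdx6b and Prdx6-ps2 held 789 and 159 counts over the 32 libraries, beside 3117067 for Prdx6.

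**Figure D2:**
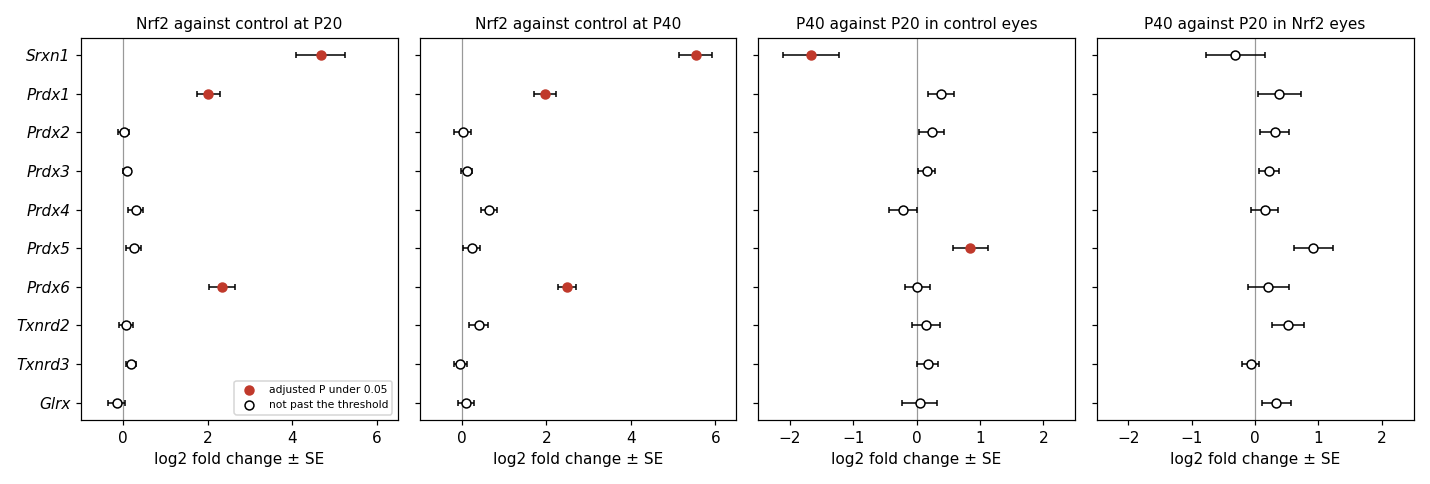
Log2 fold change ± SE of the 10 genes in 4 comparisons, filled where the adjusted P was under 0.05. Srxn1, Prdx1 and Prdx6 are filled in both comparisons of Nrf2 with control, and with age only Srxn1 (-1.67) and Prdx5 (0.85) are filled, in control eyes.

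The other 4 peroxiredoxins did not pass the threshold with Nrf2. Without P20 mice 3 and 4 none of the other 7 genes was called at P20 either, and the log2 fold changes were then -0.0403 for Prdx2, 0.02 for Prdx3, 0.34 for Prdx4, 0.18 for Prdx5, 0.10 for Txnrd2, 0.21 for Txnrd3 and -0.32 for Glrx (edgeR adjusted P from 0.260 for Glrx to 0.956 for Prdx3). Prdx2 (ENSMUSG00000005161, chr8:84969587-84974834, plus strand) is, like Prdx1, a cytosolic substrate of sulfiredoxin and is abundant in red blood cells. It ran from 223 through a median of 325 to 390 CPM in P20 control, 252 through 350 to 384 in P20 Nrf2, 284 through 306 to 529 in P40 control and 249 through 349 to 773 CPM in P40 Nrf2 eyes. All 4 groups overlapped, and the log2 fold change was 0.00 at P20 (95% confidence interval -0.31 to 0.32) and 0.02 at P40 (-0.42 to 0.46), so changes of the size of that in Prdx1 lay outside both intervals. The highest value, 773 CPM, was the P40 Nrf2 eye of mouse 3, which also had the highest sum of red blood cell markers, 5835 CPM against a group median of 648 CPM. The same eye also had the highest sums of all 32 for RPE (67388 CPM), Muller glia (1896 CPM) and muscle markers (866 CPM). Other eyes with high sums of red blood cell markers varied in Prdx2. The P40 Nrf2 eye of mouse 6 had 3909 CPM of these markers and 424 CPM of Prdx2. The P20 control eye of mouse 2 had 3430 and 304 CPM. The P40 control eyes of mice 5 and 3 had 3300 and 3210 CPM of these markers and 512 and 529 CPM of Prdx2. The part of red blood cells in the level of Prdx2 was not tested. Exons of Prdx2 overlap Rnaseh2a and Junb on the other strand. Over the 32 libraries these genes held 27785 and 115025 counts, beside 394861 for Prdx2. Whether the library kit kept strand is not given in the sources used here, and without strand the reads of such partners cannot be told apart.

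Prdx3 (ENSMUSG00000024997, chr19:60864051-60874556, minus strand), the mitochondrial peroxiredoxin, had a narrow spread at P20, with 68.2 ± 7.92 CPM in control and 73.5 ± 7.00 CPM in Nrf2 eyes (SD, n = 7 each). At P40 it had 74.2 ± 12.4 and 83.8 ± 20.7 CPM (SD, n = 9 each). Its log2 fold change was 0.08 at P20 (95% confidence interval -0.14 to 0.29) and 0.12 at P40 (-0.17 to 0.40), and neither passed the threshold (edgeR adjusted P = 0.707 and 0.837).

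Prdx4 (ENSMUSG00000025289, chrX:155323918-155340754, minus strand), the peroxiredoxin of the endoplasmic reticulum, was the member nearest to the threshold among those not called. At P40 it ran from 9.55 through a median of 18.8 to 30.3 CPM in control eyes and from 18.3 through 30.1 to 45.2 CPM in Nrf2 eyes. The Nrf2 eye was higher in 8 of 9 mice, and lower in mouse 2. The log2 fold change was 0.64 (SE 0.19, unadjusted P = 0.00648, edgeR adjusted P = 0.107), and it passed the threshold with DESeq2 (adjusted P = 0.0353), with limma voom (adjusted P = 0.0421) and without mouse 2 (0.76, edgeR adjusted P = 0.0439). At P20 it was 22.1 ± 4.93 CPM in control and 27.3 ± 4.52 CPM in Nrf2 eyes (SD, n = 7 each), with a log2 fold change of 0.29 (SE 0.18, edgeR adjusted P = 0.440).

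Prdx5 (ENSMUSG00000024953, chr19:6906697-6910106, minus strand), which is found in mitochondria, peroxisomes and cytosol, was at 202 through a median of 282 to 419 CPM in P20 control eyes and 240 through 368 to 384 CPM in P20 Nrf2 eyes. At P40 it was at 255 through 443 to 846 CPM in control eyes and 354 through 489 to 1678 CPM in Nrf2 eyes. The groups overlapped at both ages, with the Nrf2 eye higher in 5 of 7 and 5 of 9 mice. Its log2 fold change with Nrf2 was 0.24 at P20 and 0.23 at P40 (edgeR adjusted P = 0.504 and 0.756). Exons of Prdx5 overlap Trmt112 on the other strand, which held 10.7% as many counts.

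The reductases and the glutaredoxin were low and did not pass the threshold. Txnrd2 (ENSMUSG00000075704, chr16:18426384-18479073, plus strand), the mitochondrial thioredoxin reductase, was at 11.2 ± 1.74 CPM in P20 control and 11.9 ± 1.79 CPM in P20 Nrf2 eyes (SD, n = 7 each), and at 11.99 ± 4.50 and 16.6 ± 7.27 CPM at P40 (SD, n = 9 each). Its log2 fold change was 0.06 at P20 and 0.40 at P40, where the Nrf2 eye was higher in 6 of 9 mice (edgeR adjusted P = 0.881 and 0.553).

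Txnrd3 (ENSMUSG00000000811, chr6:89643988-89675529, plus strand), a reductase of both thioredoxin and glutathione best known from testis, was at 14.7 ± 2.12 and 17.1 ± 2.28 CPM in P20 control and Nrf2 eyes and at 16.3 ± 3.96 and 16.01 ± 1.85 CPM at P40 (SD, n = 7 and n = 9 each). Its promoter held a core match (GCAGGCTCA at -129), and its log2 fold change was 0.19 at P20 and -0.03 at P40 (95% confidence intervals -0.08 to 0.46 and -0.36 to 0.29). Glrx (ENSMUSG00000021591, chr13:75839868-75850154, plus strand), which removes glutathione from protein cysteines, was at 26.3 ± 8.93 and 23.3 ± 3.64 CPM at P20 and at 26.6 ± 11.6 and 28.7 ± 12.3 CPM at P40 in control and Nrf2 eyes. It was the only gene of the 10 with a value below 0 at P20, -0.16, and it was 0.10 at P40 (edgeR adjusted P = 0.720 and 0.925). With 1 mouse left out the P20 value ranged from -0.36 without mouse 4 (SE 0.13, edgeR adjusted P = 0.112) to -0.0455 without mouse 6.

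Levels between genes were compared as CPM per kilobase of annotated exon. The length joined all annotated exons of a gene, and the order between genes depends on that choice. Which transcripts were expressed was not tested. The SDs are spreads among eyes. All genes were read in the same eyes, and their order within each eye was not tested. In P20 control eyes the order was Prdx1 (208 ± 55.4), Prdx6 (171), Prdx5 (130), Prdx2 (107), Prdx3 (46.2), Srxn1 (40.5), Prdx4 (10.5), Txnrd3 (5.19), Glrx (4.79) and Txnrd2 (2.53), all as means in CPM per kilobase. In the mean, neighbours among the upper 4, and the pairs of Prdx3 with Srxn1 and of Txnrd3 with Glrx, differed by less than the larger of their SDs among eyes. The Srxn1 mean rested on the library labelled control of mouse 3: without P20 mice 3 and 4 it was 20.6 ± 7.60 CPM per kilobase beside 46.6 ± 5.67 for Prdx3 (SD, n = 5), a difference larger than either SD, and Glrx (5.24) then stood above Txnrd3 (4.83). In P20 Nrf2 eyes Prdx6 (914 ± 336), Prdx1 (909 ± 343) and Srxn1 (859 ± 481) headed the order (SD, n = 7). The differences among these means were smaller than their SDs among eyes. Prdx5 followed at 155 CPM per kilobase. Without mice 3 and 4 the leading 3 were at 1002, 1001 and 960 CPM per kilobase, in the same order. At P40 Srxn1 was at 12.3 CPM per kilobase in control eyes beside 264 for Prdx1. In P40 Nrf2 eyes it was at 689 ± 403 beside 1164 ± 579 for Prdx1 and 1042 ± 462 for Prdx6 (SD, n = 9). Its mean was lower than both, by less than the SD among eyes of Prdx1 and of Prdx6 respectively.

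**Figure D3:**
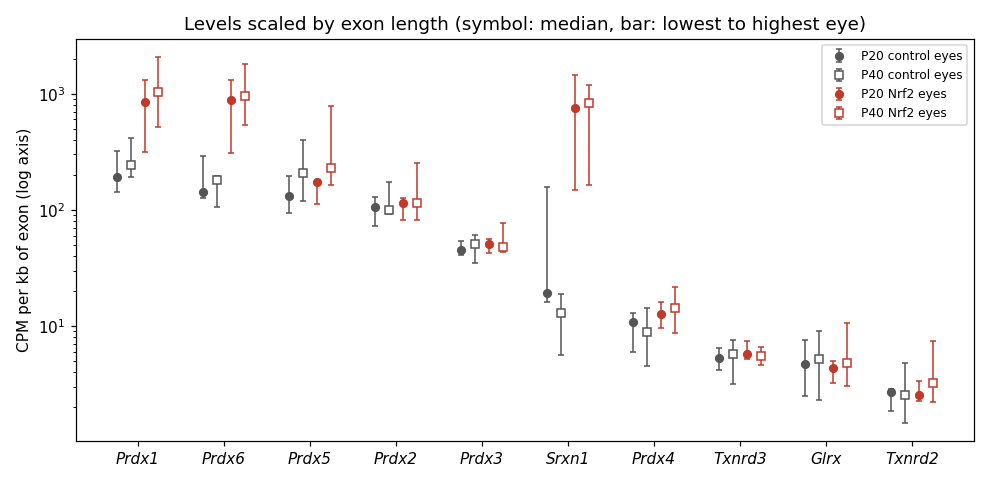
Level per kilobase of annotated exon (CPM per kb, log axis) of the 10 genes in the 4 groups, with the median as symbol and the lowest to highest eye as bar. On this scale Srxn1 moves from among the lower genes in control eyes into the range of Prdx1 and Prdx6 in Nrf2 eyes. The order between genes depends on the exon length used.

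Whether the effect of Nrf2 differed between the ages was tested by the interaction. None of the 10 genes passed the threshold, beside 0.00557% of 17959 genes tested, that is 1 gene. None had an unadjusted P under 0.05, and DESeq2 and limma voom also called 0. Srxn1 had a difference of 0.86 in log2 fold change, P40 minus P20, with a 95% confidence interval of -0.48 to 2.203. For Prdx1 it was -0.03 (-0.80 to 0.73) and for Prdx6 0.16 (-0.57 to 0.89). Without P20 mice 3 and 4 these differences were 0.09 for Srxn1 (SE 0.56), -0.36 for Prdx1 (SE 0.39) and -0.20 for Prdx6 (SE 0.35), and none passed the threshold.

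The comparison of the ages within control eyes asked how the genes differed between P20 and P40. Of the 10, Srxn1 was called lower and Prdx5 higher at P40, beside 14.8% of 16832 genes tested. The share of all genes called was 3.82% without the P20 library labelled control of mouse 3 and 0.916% without P20 mice 3 and 4, and in the latter fit none of the 10 genes was called. This comparison and those of Nrf2 with control share the control eyes. The human transgene had a median of 47.2 CPM in P20 control eyes and 0.383 CPM in P40 control eyes. Its part in the differences between the ages was not tested. The levels at P20 and P40 overlapped for each of the 10 genes, and the share of all genes that overlapped was not computed. Srxn1 fell by 1.67 on the log2 scale (SE 0.44, edgeR adjusted P = 0.0293), from 45.3 to 444 CPM at P20 to 16 to 53.2 CPM at P40. The size of the change rested on 1 library. When the P20 library labelled control of mouse 3 was left out, the change was -0.75 (SE 0.22, edgeR adjusted P = 0.0568). The call was also lost without P20 mouse 5 (edgeR adjusted P = 0.0559), P40 mouse 2 (0.0500025) or P40 mouse 5 (0.0533). In those fits the change stayed at -1.71, -1.63 and -1.72. Fewer of all genes were called in them, 473, 1005 and 607, against 2483 with all eyes. Txnrd1, whose product recharges cytosolic thioredoxin, fell by 1.05 in the same comparison (SE 0.29, edgeR adjusted P = 0.0319); its highest P20 control value was 461 CPM against a mean of 168 CPM, and without the library of mouse 3 the change was -0.58 (SE 0.17, edgeR adjusted P = 0.0552).

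Prdx5 was higher at P40 in control eyes by 0.85 (SE 0.28, 1.80-fold, edgeR adjusted P = 0.0492), with means of 278 ± 75.4 CPM at P20 (SD, n = 7) and 486 ± 220 CPM at P40 (SD, n = 9). The call was kept in 5 of 16 fits that left out 1 eye, with changes of 0.67 to 0.98, and was lost when any of the other 11 was left out: P20 mice 1, 2, 3, 4, 5 and 7 and P40 mice 2, 3, 5, 7 and 8. In the same comparison 1 of 6 RPE markers was called higher, and 2 of 7 rod, 2 of 4 fibroblast and 1 of 5 red blood cell markers were called lower. No cone, macrophage, endothelial, Muller glia or muscle marker was called, and the part of these cells in the change was not tested. The other 8 genes did not pass the threshold, with log2 changes from -0.21 (Prdx4) to 0.39 (Prdx1).

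**Figure D4:**
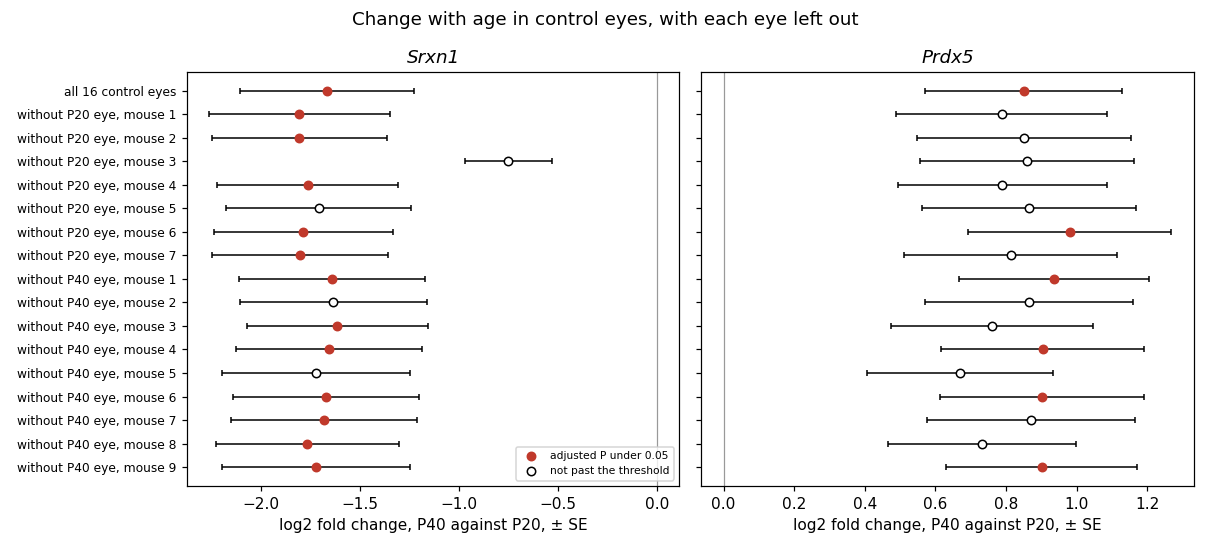
Log2 fold change ± SE of Srxn1 and Prdx5, P40 against P20 in control eyes, with all 16 eyes and with each eye left out, filled where the adjusted P was under 0.05. Srxn1 moves from -1.67 to -0.75 without the P20 eye of mouse 3, and Prdx5 stays between 0.67 and 0.98.

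In Nrf2 eyes none of the 10 genes was called between the ages by edgeR, beside 0.502% of 16745 genes tested. At an unadjusted P under 0.05 there was 1, Prdx5, which DESeq2 called (log2 change 0.92, adjusted P = 0.0419) and limma voom did not. By edgeR its change was 0.92 (SE 0.31, adjusted P = 0.113), beside 0.85 in control eyes. The P40 Nrf2 eye of mouse 8 had the highest level, 1678 CPM, and the other 8 lay between 354 and 593 CPM. Without that eye the change was 0.54 (SE 0.16, edgeR adjusted P = 0.170). Srxn1 changed by -0.31 (95% confidence interval -1.30 to 0.68) and Prdx6 by 0.21 (-0.46 to 0.88), and neither passed the threshold.

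The other genes of the pathway were described by 4 lists. Over the 4 lists 5 of 37 genes tested (13.5%) were called at P20 and 3 of 38 (7.89%) at P40, beside 3.41% and 4.57% of all genes. In the thioredoxin system 12 genes were tested, and 2 were called higher with Nrf2 at P20. Txnrd1 was at 168 ± 131 CPM in P20 control and 1931 ± 927 CPM in P20 Nrf2 eyes (SD, n = 7 each) and at 78.5 ± 16.2 and 1425 ± 683 CPM at P40 (SD, n = 9 each). Its log2 fold change was 3.53 at P20 (SE 0.37, edgeR adjusted P = 0.00921) and 3.98 at P40 (SE 0.37, edgeR adjusted P = 7.41e-05), and at P20 without mice 3 and 4 it was 4.01 (SE 0.30, edgeR adjusted P = 0.00292). Txnl1, a thioredoxin-like gene, rose by 0.42 at P20 (SE 0.08, edgeR adjusted P = 0.0337), a call lost without mice 3 and 4 (0.42, SE 0.11, edgeR adjusted P = 0.0869), and was at 0.36 at P40 (edgeR adjusted P = 0.210). The thioredoxin gene Txn1 itself was at 0.26 and 0.42 and did not pass (edgeR adjusted P = 0.481 and 0.592). Over the 12 genes the median was 0.14 at P20 and 0.07 at P40 on the log2 scale. Among the reductases Txnrd1 was called at both ages and neither Txnrd2 nor Txnrd3 was called, and the differences between them were not tested.

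Among other peroxide and superoxide enzymes 3 of 9 tested rose at P20 and 2 of 10 at P40. Cat, the catalase gene, rose by 1.39 and 1.13 (edgeR adjusted P = 0.0134 and 0.0240), and Sod2, for the mitochondrial superoxide dismutase, by 1.24 and 0.91 (edgeR adjusted P = 0.0128 and 0.00965). Gpx4, which reduces lipid peroxides, rose by 1.67 at P20 (edgeR adjusted P = 0.0291) and was at 1.21 at P40 (0.0804). The median of the list was 0.60 at P20 and 0.38 at P40. Without P20 mice 3 and 4 the calls at P20 were again Cat (1.62), Sod2 (1.403) and Gpx4 (1.93). None of 10 genes for thiol repair and client enzymes (methionine sulfoxide reductases, ribonucleotide reductase and sestrins) was called with Nrf2, with log2 fold changes from -0.97 to 0.87 at P20 and from -0.74 to 0.88 at P40. None of 6 disulfide enzymes of the endoplasmic reticulum, the compartment of Prdx4, was called either, and their log2 fold changes ran from 0.04 to 0.29 at P20 and from -0.13 to 0.28 at P40. Neither list had a call at P20 without mice 3 and 4.

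**Figure D5:**
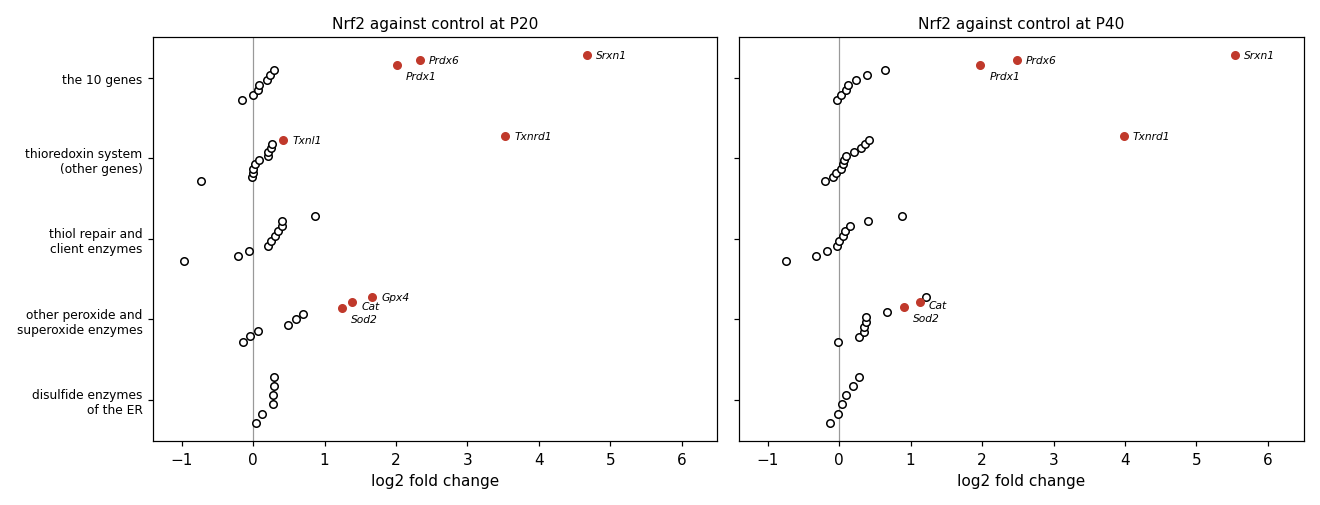
Log2 fold change of the 10 genes and of the genes of 4 related lists, Nrf2 against control at P20 and at P40, with genes past an adjusted P of 0.05 filled and named. Srxn1 lies farthest to the right at both ages, followed by Txnrd1, and no disulfide enzyme of the endoplasmic reticulum (ER) is filled.

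With age in control eyes, 3 genes of the thioredoxin list were called: Txn2, for mitochondrial thioredoxin, and Glrx5, for a mitochondrial glutaredoxin, were higher by 0.47 and 0.89, and Txnrd1 was lower as given above. Msrb2 (0.76), Gpx4 (1.47) and Sod1 (1.37) were also higher at P40. In total, 6 of 37 genes of the 4 lists (16.2%) were called, near the 14.8% of all genes. Of these, Msrb2 and Gpx4 were called without the P20 library labelled control of mouse 3, and none without P20 mice 3 and 4 (edgeR adjusted P from 0.0592 for Gpx4 to 0.104 for Sod1). No gene of the 4 lists was called with age in Nrf2 eyes or in the interaction by edgeR.

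Likeness across eyes was described by Pearson's r of log2 CPM over the 32 libraries, against 17958 other genes. The libraries share the Nrf2 groups, so the r of any genes that rose with the transgene is high. The genes most like Srxn1 were Gclc (0.993), Panx1 (0.990), Slc11a1 (0.989), Txnrd1 (0.988) and Gclm (0.987). Gclc and Gclm encode the subunits of the enzyme that begins glutathione synthesis. Among the 10 genes Prdx6 was the most like Srxn1 (r = 0.966, rank 22), and Prdx1 followed (0.897, rank 113). The genes most like Prdx1 were Esd (0.989), Ypel5 (0.983), Gm21399 (0.978), Tuba4a (0.978) and Rida (0.978), and Prdx6 ranked 9 with 0.969. Gm21399 is the pseudogene described above that shares near-identical sequence with Prdx1. Outside these 3 genes the highest r between members were 0.774 for Prdx2 with Txnrd2 and 0.716 for Prdx3 with Glrx.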

How the data were processed

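RNA had been amplified from RPE of 32 eyes of 16 mice and sequenced. The deposited values are estimated counts per Ensembl gene, already whole numbers, made by the authors. The processing notes name Salmon 0.9.1; the methods describe STAR on mm10 with featureCounts and, in parallel, Salmon, and which of them made the table is not given in the sources used here. Because RNA was amplified, read counts overstate the number of independent molecules.

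Genes were filtered with filterByExpr, scaled by TMM and tested with edgeR 4.0.16 (quasi-likelihood, R 4.3.3). Nrf2 and control eyes were compared with the mouse as a block, since the labels pair the eyes; over the pairs the deviations of both eyes had a mean correlation of 0.0213 (P20) and 0.0990 (P40). Ages were compared without a block. P values were adjusted by Benjamini-Hochberg over all genes (threshold 0.05). Standard errors were taken from the F statistic and confidence intervals are 95%. CPM used TMM library sizes over all 32 libraries, with a prior count of 2 for log2. Alternatives were DESeq2 1.42.0, limma 3.58.1 (voom with quality weights), RLE scaling, other filters, the other blocking, each replicate left out, and P20 mice 3 and 4 left out. For the related gene lists and the levels per length, leaving out these mice was chosen after seeing the data. Fits were checked on simulated data. Gene positions and exon lengths came from GENCODE M21 (GRCm38), and transcripts sharing at least 200 bases at 90% identity were found with blastn. The members and lists were chosen with earlier results of these data known; all 10 members are named, and of other genes the list members that passed the threshold and the 5 genes most like Srxn1 and Prdx1. Txn1 and Txnl1 and Gpx4 at P40 are named with values for comparison. A further overlap between a member's exons and another gene is not reported here.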

Additional observations from a re-analysis of the deposited data

Results flagged for a closer look

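In 60 groups and sets of differences, 6 had an eye far from the rest by Dixon's test, and chance gives about 1 in 20. Srxn1 in P20 control eyes was highest in mouse 3, at 444 CPM, with the other 6 at 45.3 to 95.8 CPM. In P20 Nrf2 eyes mouse 4 was lowest for Prdx1, at 960 CPM against 2282 to 3985 CPM, and for Prdx6, at 1474 CPM against 3675 to 6242 CPM. These are the libraries whose transgene level, 1098 CPM in the control eye of mouse 3 and 1082 CPM in the Nrf2 eye of mouse 4, stood apart from their groups. The difference between the eyes for Glrx at P20 was highest in mouse 4, at 1 on the log2 scale, with the other mice at -0.68 to 0.01. Prdx4 in P20 control eyes was lowest in mouse 6, at 12.5 CPM against 20.03 to 27.3 CPM. Prdx5 in P40 Nrf2 eyes was highest in mouse 8, at 1678 CPM against 354 to 593 CPM. The cause of each was not tested.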

How the results depend on the processing

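The calls of Srxn1, Prdx1 and Prdx6 with Nrf2 held in all 14 settings at P20 and all 15 at P40. With an eye pair left out, 3 members were called at P20 and 3 to 4 at P40, the addition being Prdx4. With age in control eyes the number called, 2, became 1 with limma voom (Prdx5), 1 with no filter on low counts (Srxn1), 0 with a replicate block and 0 without P20 mice 3 and 4, and 0 to 2 with 1 eye left out. The mice of the 2 ages share only a number. With age in Nrf2 eyes DESeq2 called 1 (Prdx5) where edgeR called 0. The paired fit changed no other count: without the replicate block 3 members were called at P20, 3 at P40 and 0 in the interaction. Over the settings the number of all genes called ranged from 111 to 2605 at P20 (556 as reported, 1999 without mouse 4), 521 to 1452 at P40 (762), 158 to 4320 with age in control eyes (2483), 3 to 2213 with age in Nrf2 eyes (84) and 1 to 10 in the interaction (1), so the shares of genes called move with the setting.

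Of 980 recomputed member values, 66 changed sign, none of them past the threshold before or after. With limma voom these were -0.031 for Prdx2 and -0.053 for Txnrd2 at P20, -0.053 for Prdx2 at P40, -0.072 for Txnrd2 with age in control eyes, 0.054 for Srxn1 with age in Nrf2 eyes and -0.0070 for Prdx2 in the interaction. In the interaction Prdx2 was also -0.0016 with DESeq2, -0.0024 with RLE and -0.00026 with at least 10 counts in every library, and Prdx5 was 0.0081 with no filter. At P20 Prdx2 was -0.019 with at least 10 counts in every library. With no filter Prdx6 was -0.069 and Glrx -0.033 with age in control eyes. With a replicate block those were -0.01004 and -0.086, and without it Prdx2 at P20 was -0.0048, and Prdx1 and Prdx5 in the interaction were 0.012 and 0.066. Without P20 mice 3 and 4, Prdx2 at P20 was -0.0403, Glrx with age in control eyes -0.0898, and Prdx5 and Prdx6 in the interaction 0.018 and -0.199.

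With 1 replicate left out the values that changed sign ranged from -0.0797 to 0.074 (Prdx2) and -0.012 to 0.14 (Txnrd2) at P20, and from -0.079 to 0.12 (Prdx2), -0.056 to 0.037 (Txnrd3) and -0.016 to 0.196 (Glrx) at P40. With age in control eyes they ranged from -0.054 to 0.18 (Prdx6), -0.047 to 0.23 (Txnrd2) and -0.12 to 0.196 (Glrx). In the interaction they ranged from -0.23 to 0.15 (Prdx1), -0.11 to 0.13 (Prdx2), -0.018 to 0.12 (Prdx3), -0.14 to 0.098 (Prdx5) and -0.047 to 0.32 (Prdx6). The cause of these changes was not tested. The lowest count of any member in any library was 106.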
